A study of Mus musculus with 5 samples.

Results

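The genes described here are 40 genes of DNA replication and cell division, chosen by name with earlier results of these data known. All 40 were found among the 31253 genes of the count tables. They comprise 20 S-phase genes, 15 genes of mitosis (here G2 and M) and 5 others that are high in dividing lymphocytes, Stmn1, Hmgb2, Tubb5, Nrm and Pmf1. They were measured by single-cell RNA-seq on the BD Rhapsody system in male mice aged 8 to 10 weeks, with 1 library in each group. The kidney libraries, labelled as sorted innate lymphoid cells, come from mice with unilateral ureteral obstruction (UUO, the left ureter tied and cut), namely wild-type mice at day 14 and PD-1 knockout mice (B6.Cg-Pdcd1tm1.1Shr/J) at day 3. The intestinal libraries, labelled as sorted group 3 innate lymphoid cells, come from wild-type small intestine after sham surgery, in which the ureter was exposed only, and 3 days after UUO. For a further wild-type kidney library of day 3 no count matrix was used here. In the kidney the genotype label and the day differ together and cannot be told apart. How many mice went into each library is not stated. With 1 library per group nothing was tested, and the 95% intervals in brackets cover counting error only.

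A dividing cell copies its DNA in S phase and parts the copies in mitosis. The 6 Mcm genes encode the ring-shaped helicase that is loaded onto replication origins by Cdc6 and Cdt1 and opens the DNA with the help of Gins2. Pcna is the sliding clamp of the DNA polymerases, Pclaf binds it, and Lig1 and Fen1 join and trim the new strands. Tyms, Rrm1, Rrm2, Tk1 and Dut make or guard the nucleotide pool, Ung removes uracil from DNA, and Slbp processes histone messages. Of the mitosis genes, Cdk1 with the cyclins Ccna2, Ccnb1 and Ccnb2 drives entry into division. Top2a untangles chromosomes, Mki67 coats them, Cenpe and Cenpf sit at the kinetochore, and Aurka, Aurkb, Birc5, Bub1, Tpx2, Nusap1 and Ube2c build, check or end the mitotic state. Genes of the first group are known targets of E2F factors. Many of the second are known to carry a CHR element (cell cycle genes homology region) near CCAAT boxes, which the DREAM and MuvB complexes bind. In healthy adult tissue most lymphocytes rest outside the cycle, and the few that divide make much of the RNA of these genes.

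The promoters of the 2 groups differed in the motif letters they held, which the choice of members did not use. Promoters of 34 of the 40 genes were found in RefSeq (GRCm38.p6, 250 bases before to 50 after the start). E2F-type letters, TTTGGCGC, TTTCGCGC, TTTCCCGC or TTTGCCGC on either strand, were present in 8 of 22 promoters of S-phase genes (36.4%) and 1 of 12 of mitosis genes. All 32851 promoters of the table held them in 2.26%, and those of genes with at least 100 UMIs in 3.88%. The CHR letters TTTGAA were present in 2 of 22 S-phase and 7 of 12 mitosis promoters (58.3%), against 17.9% of all and 12.4% of those with at least 100 UMIs. TTTGAA together with at least 2 CCAAT, on either strand, was found in 0 of 22 and in the same 7 of 12, against 2.09% and 1.79%. These are matches of letters and not shown binding sites. The sequences printed next show 2 helicase genes and 2 mitosis genes whose values recur in the results, with E2F-type and CHR letters in capitals. The 2 E2F-type matches of Mcm5 overlap.

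Mcm3, chr1:20820263-20820562, minus strand: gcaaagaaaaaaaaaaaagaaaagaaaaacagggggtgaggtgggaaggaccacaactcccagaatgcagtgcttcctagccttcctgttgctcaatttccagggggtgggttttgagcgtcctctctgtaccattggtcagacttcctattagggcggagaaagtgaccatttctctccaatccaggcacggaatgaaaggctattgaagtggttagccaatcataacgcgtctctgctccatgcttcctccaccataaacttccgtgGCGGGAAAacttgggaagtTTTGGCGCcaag
Mcm5, chr8:75109259-75109558, plus strand: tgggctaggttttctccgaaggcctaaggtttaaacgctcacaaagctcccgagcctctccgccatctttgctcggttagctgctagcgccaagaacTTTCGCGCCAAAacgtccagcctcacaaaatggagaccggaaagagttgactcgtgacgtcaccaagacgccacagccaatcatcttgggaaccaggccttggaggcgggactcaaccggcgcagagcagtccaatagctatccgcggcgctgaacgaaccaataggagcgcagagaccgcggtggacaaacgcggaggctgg
Top2a, chr11:99024140-99024439, minus strand: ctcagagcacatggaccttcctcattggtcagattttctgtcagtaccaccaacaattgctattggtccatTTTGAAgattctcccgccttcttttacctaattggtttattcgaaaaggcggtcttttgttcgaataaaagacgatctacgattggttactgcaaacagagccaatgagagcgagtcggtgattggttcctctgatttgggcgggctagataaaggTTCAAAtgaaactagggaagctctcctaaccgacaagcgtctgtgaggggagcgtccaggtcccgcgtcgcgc
Cdk1, chr10:69352863-69353162, minus strand: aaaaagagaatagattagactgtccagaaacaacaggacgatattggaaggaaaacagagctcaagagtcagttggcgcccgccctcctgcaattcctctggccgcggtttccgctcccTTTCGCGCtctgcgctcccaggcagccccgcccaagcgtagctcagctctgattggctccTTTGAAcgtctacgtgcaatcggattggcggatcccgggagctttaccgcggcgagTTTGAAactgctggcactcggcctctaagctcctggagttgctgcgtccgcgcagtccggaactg

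In Mcm3 both matches lie after the start site, at bases 20 and 39, and in Mcm5 they lie before it, at -153 and -149. Top2a has CHR letters at -179 and -23. Cdk1 holds both kinds, E2F-type letters at -131 and CHR letters at -71 and -15. Its promoter was the 1 mitosis promoter with E2F-type letters. Mcm4, Gins2, Ccna2, Tpx2, Aurkb and Stmn1 had no entry.

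The 4 libraries kept 5212, 6960, 3501 and 4946 cells, in the order wild-type kidney, kidney labelled PD-1 knockout, sham intestine and UUO intestine, with medians of 1824, 2064.5, 2039 and 2177 UMIs (unique molecular identifiers, each a counted RNA molecule). Pdcd1, the targeted gene, stood at 127 and 189.6 CPM (counts scaled to a common total of UMIs, as usual for CPM) in the kidney libraries and at 50.5 and 46.9 CPM in the intestinal ones, so the library labelled knockout held its RNA. Whether the counted tag lies in the deleted part is not given, and these levels do not check the genotype. The intestinal libraries shared 158 barcode sequences, against 22 to 27 in the other pairs that could be compared. Of the cells kept, 156 in each library had such a barcode, among them 47 sham and 76 UUO cells of the ILC3 gate, of which 6 and 3 were cycling.

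Cells were placed into classes by UMIs of lineage genes, none of which is a member. In wild-type kidney and kidney labelled knockout the gates held 323 and 418 ILC2-like cells, 752 and 832 ILC1/NK-like cells, 557 and 2247 CD8 T-like cells, 579 and 329 CD4 T-like cells, 1928 and 1543 other CD3 cells and 96 and 79 B-like cells. Most kidney cells thus carried CD3 genes, although the label is innate lymphoid cells. The intestine held 2894 and 3976 ILC3-like cells. Kidney cells that passed the ILC3 gate, 153 and 151, were led by Ccl22 and Fscn1, dendritic cell genes, or by the plasma cell genes Igha and Jchain, and got no name. That gate includes the Tmem176 pair, which ILC2 and NK cells of the kidney carry too, so 202 wild-type and 292 knockout cells passed both the ILC2 and the ILC3 gate and were left out as mixed. They included 7 and 23 cycling cells, more than the ILC2 class itself. ILC2 and ILC1/NK results are therefore also given with an ILC3 gate without Tmem176a and Tmem176b, an alternative chosen after seeing the data.

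A cell was called cycling when Mki67, Top2a, Pclaf and Cdk1 together had at least 3 UMIs. Over the 4 libraries 265 of 16553 gated lymphoid cells (1.60%) were cycling, and they held 3.81% of the UMIs. Many cells lay near the threshold. Exactly 3 of these UMIs were found in 29 of the 68 cycling cells of wild-type kidney and 32 of the 123 of kidney labelled knockout, and 117 and 106 further cells had 2. In sham and UUO intestine 10 of 34 and 9 of 40 cycling cells had exactly 3, and 16 and 38 further cells had 2. With at least 2 UMIs as the threshold the share of all gated cells in wild-type kidney went from 1.61% to 4.37%, and with at least 5 to 0.661%. Cycling cells were deep, with median depths of 2796, 4091, 5839.5 and 6843.5 UMIs against 1834, 2024, 2053 and 2218.5 in the rest. A deeper cell reaches the threshold more easily, so shares are also given with cells thinned to 1000 UMIs. Cells under 1000 UMIs were left out of the thinned shares. They were 206 and 205 gated cells of wild-type kidney and kidney labelled knockout, and 74 and 200 of sham and UUO intestine. Cells not called cycling are called cells below the threshold, since a dividing cell with few UMIs of these 4 genes is among them.

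The few cycling cells held most of the RNA of most mitosis members and a smaller part of that of most S-phase members. This split is set in part by the rule, since the defining genes Mki67, Top2a and Cdk1 are mitosis members. Pclaf, the only S-phase gene among the defining ones, had 89.9% of its UMIs in cycling cells. Among the 12 mitosis members that did not define the cells, a median of 74.8% of a gene's UMIs lay in cycling cells. Values ran from 17.3% for Aurka, the spindle pole kinase, to 86.8% for Bub1, the spindle checkpoint kinase. Cyclin A2 (Ccna2) had 80.6%, Cenpf 81.9% and Birc5 (survivin) 78.6%. Among the 19 S-phase members that did not define the cells the median was 17.8%. Helicase genes lay between 12.3% for Mcm4 and 24.6% for Mcm7, and Pcna had 13.0%, Cdt1 7.6% and Slbp 7.5%. Rrm2, the S-phase subunit of ribonucleotide reductase, stood apart at 63.0% and the origin loader Cdc6 at 53.5%, while the other reductase subunit, Rrm1, had 19.3%. Of the other 5, the microtubule regulator Stmn1 had 63.2%, the lamin-associated Nrm 23.5%, the tubulin Tubb5 19.3%, Pmf1 16.5% and the chromatin protein Hmgb2 12.7%. Fen1 had 1 UMI in all and Gins2 54, so nothing is said of them; the other 38 members had at least 100.

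**Figure D1:**
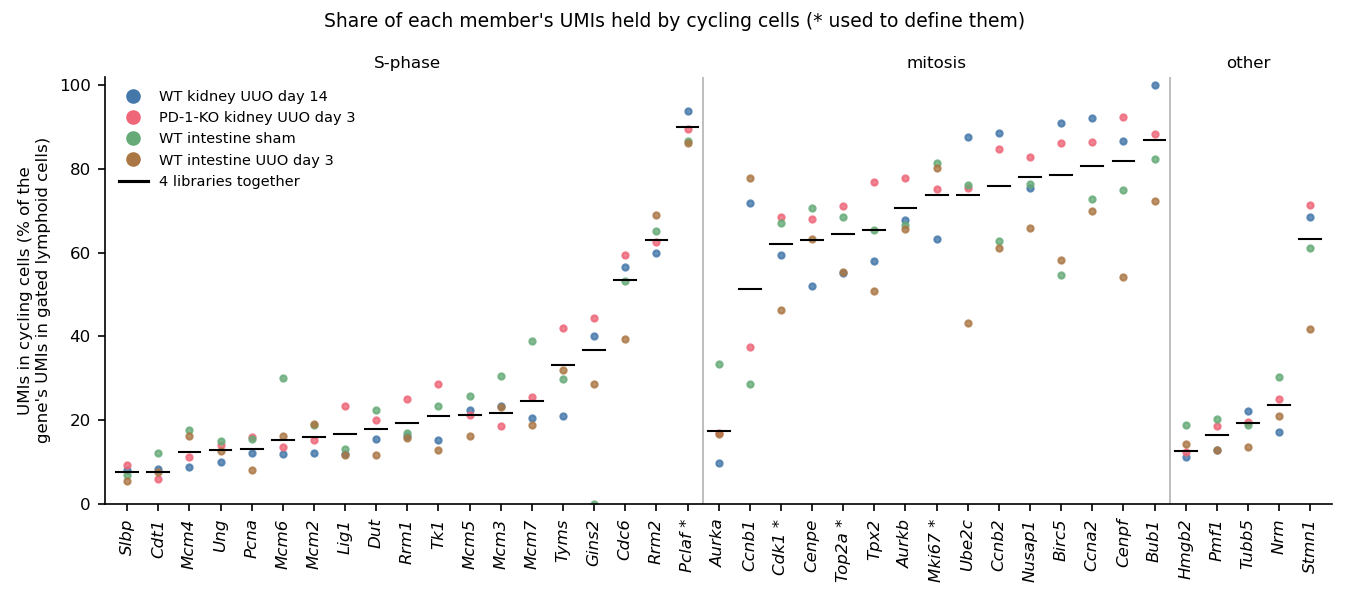
Each member's UMIs in cycling cells, in percent of its UMIs in all gated lymphoid cells (vertical axis), by gene (horizontal axis), with 1 point per library and a line for the 4 libraries together; Fen1, with 1 UMI, is left out. Most mitosis members lie above 50% in the pooled value, with Aurka at 17.3%, and most S-phase members below 25%, with Rrm2 at 63.0% and Cdc6 at 53.5%. Mki67, Top2a and Cdk1 of the mitosis group and Pclaf of the S-phase group define the cycling cells, which sets part of this split.

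The single libraries gave the same split for most genes but not all. Rrm2 had 59.9% of its UMIs in cycling cells in wild-type kidney, 62.5% in kidney labelled knockout, 65.1% in sham and 69.0% in UUO intestine. Stmn1 had 68.6 and 71.2% in the kidney and 61.1 and 41.8% in the intestine, so it was lower in UUO intestine. Birc5 had 91.0 and 86.2% in the kidney but 54.5 and 58.2% in the intestine. Bub1 ran from 72.2% in UUO intestine to 100% in wild-type kidney.

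Sums of members that did not define the cells were higher in cells with 10 or more UMIs of the defining genes than in cells with none. In wild-type kidney the 12 mitosis members summed to 20.1 (16.9 to 23.7) CPM in cells with no UMI of the defining genes, 71.4 (23.2 to 167) CPM in cells with 3, 404 (231 to 657) CPM with 4 to 9 and 4003 (3671 to 4357) CPM with 10 or more. The same steps in kidney labelled knockout were 25.3 (22.4 to 28.6), 38.8 (10.6 to 99.3), 278 (200 to 378) and 3174 (2990.0 to 3366) CPM. In the kidney, cells just at the threshold thus had intervals that overlapped those of cells with 2 UMIs, 86.6 and 35.6 CPM. In UUO intestine cells at the threshold stood at 273 (136 to 488) CPM against 42.7 CPM with 2. The 19 S-phase members started high, at 749 CPM in wild-type kidney and 935 CPM in kidney labelled knockout in cells with no defining UMI, and reached 6502 and 5155 CPM. In the intestine they started at 563 and 565 CPM and reached 3996 and 3018 CPM.

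**Figure D2:**
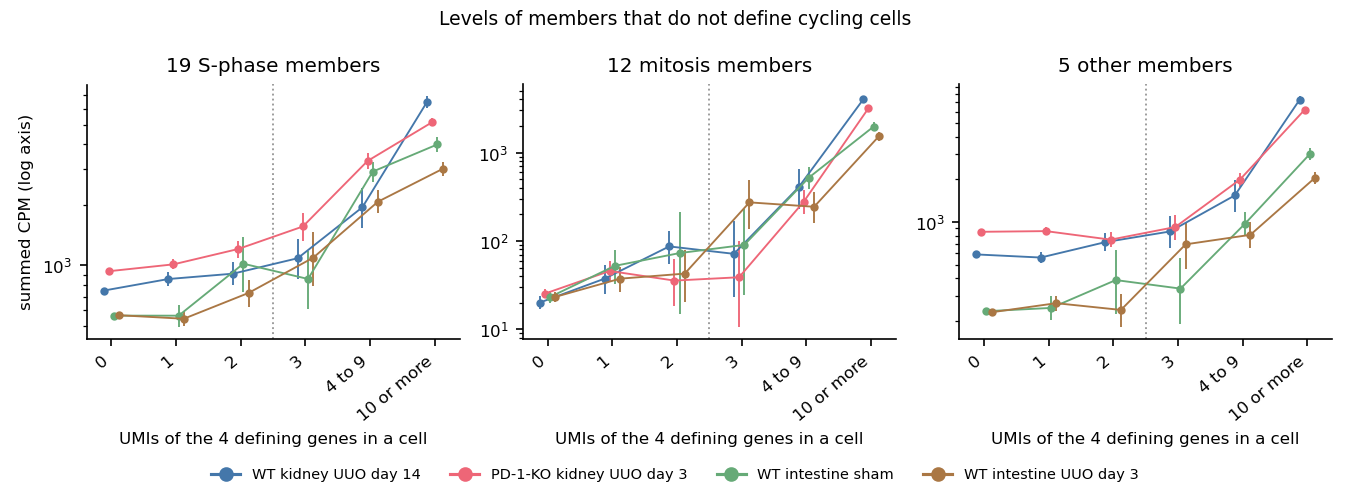
Summed CPM on a log axis of the S-phase members without Pclaf, the mitosis members without Mki67, Top2a and Cdk1, and the 5 others, by the UMIs of the defining genes in a cell; points are libraries, bars are 95% Poisson intervals and the dotted line is the threshold. S-phase and mitosis levels are highest in cells with 10 or more of these UMIs in every library. In the kidney and in sham intestine mitosis levels at 3 UMIs lie within the intervals of those at 2.

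Cycling cells were most frequent in the B gate. They were 10 of 96 B-like cells (10.4%, 5.11 to 18.3%) in wild-type and 6 of 79 (7.59%, 2.84 to 15.8%) in kidney labelled knockout, and 8.86 and 4.11% after thinning. ILC2-like cells had 3 of 323 (0.929%, 0.192 to 2.69%) in wild-type and 14 of 418 (3.35%, 1.84 to 5.56%) in kidney labelled knockout. After thinning these were 0 of 310, which allows a share of up to 0.968% at 3 cells or 1.18% as the exact upper limit, and 9 of 394 (2.28%, 1.05 to 4.29%), so the exact intervals overlapped. With the ILC3 gate without the Tmem176 pair, the ILC2-like share was 10 of 525 (1.90%, 0.917 to 3.47%) and 37 of 710 (5.21%, 3.70 to 7.11%). The knockout share was higher under both gates. The intervals overlapped under the first and not under the second, which was chosen after seeing the data. No thinned share is given for the second gate, and the intervals cover counting error only. Other CD3 cells had 27 of 1928 (1.40%, 0.925 to 2.03%) and 46 of 1543 (2.98%, 2.19 to 3.96%), and 0.383 and 1.29% after thinning. That class was also higher in the library labelled knockout, with intervals that did not overlap before thinning. The size of both differences depended on the threshold. Of the cycling other CD3 cells, 16 of 27 in wild-type and 12 of 46 in kidney labelled knockout had exactly 3 UMIs. With at least 2 the shares were 4.30 and 5.18%, and with at least 5 they were 0.207 and 2.07%. ILC2-like cells had 2.48 and 4.31% with at least 2, and 0.619 and 2.15% with at least 5.

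The other classes had shares whose intervals overlapped between libraries. CD4 T-like cells had 16 of 579 (2.76%) and 12 of 329 (3.65%), CD8 T-like cells 6 of 557 (1.08%) and 39 of 2247 (1.74%), and ILC1/NK-like cells 6 of 752 (0.798%) and 6 of 832 (0.721%). Intestinal ILC3-like cells had 34 of 2894 (1.17%, 0.815 to 1.64%) after sham surgery and 40 of 3976 (1.01%, 0.720 to 1.37%) after UUO, and 0.496% and 0.238% after thinning. Thinned shares rest on 3 to 19 cells per class in the kidney, ILC2-like cells of wild-type kidney apart, and on 14 and 9 in the intestine. Whether UMIs of free RNA carried cells over the threshold was not tested.

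**Figure D3:**
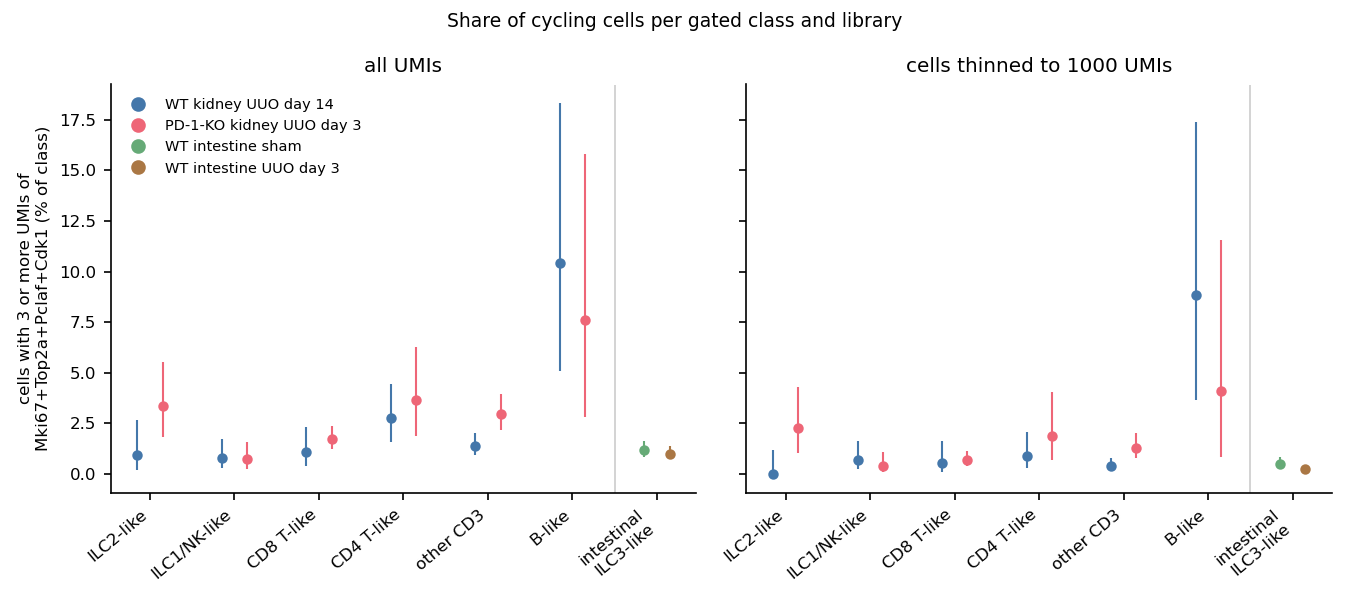
Cells with at least 3 UMIs of Mki67, Top2a, Pclaf and Cdk1 in percent of each gated class (vertical axis), by class and library, before (left) and after (right) thinning to 1000 UMIs, with exact binomial 95% intervals. B-like cells have the highest shares, 10.4 and 7.59% before thinning, and kidney labelled knockout lies above wild-type kidney in ILC2-like and other CD3 cells.

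Summed levels of S-phase members differed less between classes than those of mitosis members, B-like cells aside. In wild-type kidney the 20 S-phase members summed to 772 CPM in ILC2-like, 867 in ILC1/NK-like, 937 in CD8 T-like, 944 in CD4 T-like and 778 in other CD3 cells. In kidney labelled knockout the same sums were 1362, 925, 1165, 1090.0 and 1114 CPM. Intestinal ILC3-like cells were lower, at 687 CPM after sham surgery and 639 CPM after UUO. The 15 mitosis members summed to 124, 173, 277, 401 and 174 CPM in wild-type kidney and 385, 145, 249, 330.0 and 361 CPM in kidney labelled knockout, in the same class order. In intestinal ILC3-like cells they were 156 and 119 CPM.

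The genes that define cycling cells are members, and Mki67, Top2a and Cdk1 gave 821 of the 1377 mitosis UMIs (59.6%) in cycling cells of wild-type kidney. What leaving out cycling cells does to their sum is therefore largely fixed by the rule, and the sums are given next without the 4 defining genes. Over all gated lymphoid cells the other 19 S-phase members went from 866 to 765 CPM in wild-type kidney when cycling cells were left out. They went from 1102 to 951 CPM in kidney labelled knockout, 669.6 to 565 in sham and 629 to 567 in UUO intestine. The other 12 mitosis members went from 90.5 to 23.8, 119 to 27.7, 71.3 to 25.4 and 55.9 to 24.9 CPM in the same order. These 12 are known to be transcribed together with the defining genes, so this is a description and not an independent measure.

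Over all cells the log2 ratio of S-phase to mitosis UMIs was 1.78 (1.71 to 1.85), 1.89 (1.84 to 1.94), 2.14 (2.04 to 2.24) and 2.42 (2.34 to 2.51) with all members. Without the defining genes it was 3.26 (3.15 to 3.37), 3.21 (3.13 to 3.29), 3.23 (3.10 to 3.37) and 3.49 (3.38 to 3.61), so the order of the kidney libraries depended on those genes. In the cycling cells alone the 19 and 12 genes gave 0.88, 1.08, 1.44 and 1.33. By class, cycling cells of wild-type kidney gave values with intervals that include 0 in CD4 T-like cells (log2 0.00, -0.38 to 0.38, 16 cells), CD8 T-like cells (-0.27, -0.78 to 0.23, 6 cells) and ILC1/NK-like cells (0.23, -0.30 to 0.77, 6 cells). The knockout values were 1.54 (1.09 to 2.01), 1.12 (0.93 to 1.32) and 0.82 (0.37 to 1.28), from 12, 39 and 6 cells. The ILC1/NK-like intervals overlap. The remaining classes were not higher in the knockout. Other CD3 cells gave 1.44 (1.11 to 1.78) in wild-type and 1.22 (1.06 to 1.39) in knockout. B-like cells gave 1.31 (1.07 to 1.56) and 0.49 (0.18 to 0.81), from 10 and 6 cells. ILC2-like cells gave 0.98 in knockout, within the wild-type interval of 0.03 to 2.04. These rest on few cells, and UMIs of 1 cell are not independent.

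**Figure D4:**
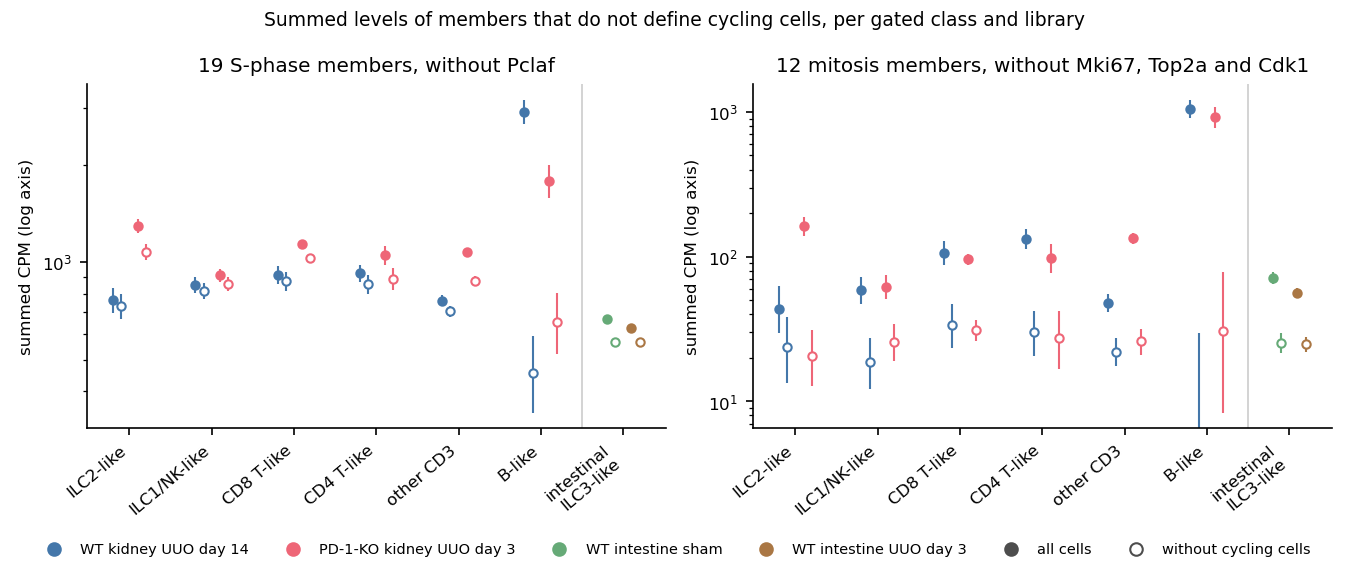
Summed CPM (log axis) of the 19 S-phase members (left) and the 12 mitosis members (right) that do not define cycling cells, per gated class and library, for all cells (filled) and without cycling cells (open), with 95% Poisson intervals. In other CD3 cells of kidney labelled knockout the mitosis sum is 134 CPM over all cells and 26.03 CPM without cycling cells, and the S-phase sum 1075 and 878 CPM; B-like cells of wild-type kidney without cycling cells have 0 mitosis UMIs, drawn as a bar with no point that ends at the exact upper limit of 29.9 CPM.

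In kidney ILC2-like cells, replication genes were higher in the library labelled knockout at day 3 than in wild-type kidney at day 14, also among cells below the cycling threshold. Beside the gate genes Calca and Il1rl1, the genes that led this class against the rest of its library included Cpa3 and Tpsb2 in wild-type kidney and Cpa3 and Hdc in kidney labelled knockout, which mast cells are known for. Their part in the result was not tested. Of 12 members with at least 100 UMIs over both libraries, 8 were at least 1.5 times higher and 0 lower, against 5.15% and 3.96% of all 3107 genes with so many UMIs. Their median log2 ratio was 1.07, and that of all genes 0.00. The 8 were 5 S-phase, 1 mitosis and 2 other members. A gene can reach 100 UMIs through the library where it is higher, and the knockout class held more UMIs, 1089304 against 686263. The count is therefore not independent of the filter, which the background shares. With at least 30 UMIs, 16 of 23 members were higher and 0 lower, against 10.4% and 7.39% of all genes. Mcm5 (chromosome 8, 75109569 to 75128439, plus strand), a helicase subunit, stood at 92.7 CPM in the knockout and 32.1 CPM in the wild-type library, a log2 ratio of 1.53 (0.86 to 2.27). Mcm3 stood at 91.8 and 35.0 CPM (log2 1.39, 0.74 to 2.10), and Mcm6 at 83.5 and 35.0 CPM (log2 1.26, 0.59 to 1.97). The library labelled knockout was the higher for all 3, with intervals apart from 0.

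In ILC2-like cells Pcna stood at 229.5 and 108 CPM (log2 1.09, 0.71 to 1.48), Rrm1 at 79.9 and 39.3 CPM (log2 1.02, 0.38 to 1.70) and Top2a at 142 and 52.5 CPM (log2 1.44, 0.91 to 2.01). Stmn1, which destabilises microtubules, had the highest ratio of the 12, 131 and 29.1 CPM (log2 2.17, 1.49 to 2.93). Lig1 was 196 and 184 CPM (log2 0.10, -0.23 to 0.43) and Hmgb2 296 and 275 CPM (log2 0.10, -0.16 to 0.37), both with intervals that include 0. Without cycling cells Mcm5 was 81.2 and 25.1 CPM (log2 1.69, 0.93 to 2.54), Mcm3 84.1 and 31.0 CPM (log2 1.44, 0.74 to 2.20), Mcm6 76.3 and 32.5 CPM (log2 1.23, 0.53 to 1.99) and Pcna 172 and 103 CPM (log2 0.74, 0.33 to 1.16). Of 9 members with enough UMIs, 5 were then at least 1.5 times higher and 0 lower, against 4.75% and 4.21% of all genes, and none of these 9 defines cycling cells. Among thinned ILC2-like cells below the threshold, 42 of 380 (11.1%, 8.08 to 14.7%) in the library labelled knockout had at least 3 S-phase UMIs, against 13 of 307 (4.23%, 2.27 to 7.13%) in wild-type kidney. Whether such cells were in S phase cannot be told, since S-phase levels over all kidney classes were already higher at 2 defining UMIs (910 and 1206 CPM in wild-type and knockout) than at none.

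The S-phase sum of ILC2-like cells gave a log2 ratio of 0.82 (0.67 to 0.96), and 0.56 (0.41 to 0.72) without cycling cells. The mitosis sum gave 1.63 (1.30 to 1.99) over all cells, and -0.52 without cells over 3 times their library's median depth, so its direction depended on a few deep cells. The 12 mitosis members that define no cell, with 177 and 30 UMIs, gave 1.89 (1.33 to 2.50) over all cells and -0.20 (-1.21 to 0.83) without the 14 and 3 cycling cells. That last interval is wide, and the cells left out were chosen by genes of the same kind. With the ILC3 gate without the Tmem176 pair, the S-phase sum was 0.75 (0.65 to 0.84) and the mitosis sum 0.69 (0.54 to 0.85). Of 24 members 21 were then at least 1.5 times higher and 0 lower, against 5.4% and 3.72% of all genes, with Mcm5 at 112 and 44.5 CPM (1.33), Pcna at 254 and 146 CPM (0.80), Nrm at 84.6 and 33.2 CPM (1.35) and Stmn1 at 173 and 96.6 CPM (0.84). Stmn1 and the mitosis sum moved by over 1.5 times with the gate. Markers of kidney epithelium summed to 14.6 and 13.8 CPM in wild-type and knockout ILC2-like cells, and those of red cells to 26.2 and 68.9 CPM.

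In other CD3 cells, which lack a clear CD4 or CD8 gate and were led by gamma-delta T cell genes such as Trgc2 and Trgc1, 14 of 25 members were at least 1.5 times higher in the library labelled knockout and 0 lower. Without the 4 defining genes it was 11 of 22 and 0 lower. The background was 6.79% higher and 8.55% lower of 7499 genes, and the medians were 0.67 for members and -0.06 for all genes. The survivin gene Birc5 stood at 24.1 and 6.84 CPM (log2 1.82, 1.17 to 2.50), Nrm at 50.7 and 14.99 CPM (log2 1.76, 1.33 to 2.21), Stmn1 at 86.8 and 28.9 CPM (log2 1.59, 1.27 to 1.91), Pclaf at 39.2 and 16.0 CPM (log2 1.29, 0.85 to 1.74) and Rrm2 at 29.6 and 12.4 CPM (log2 1.26, 0.76 to 1.78). Tk1 was 24.3 and 26.8 CPM (log2 -0.14, -0.56 to 0.28) and Ung 15.7 and 20.8 CPM (log2 -0.40, -0.91 to 0.10), with intervals that include 0. The S-phase sum gave 0.52 (0.45 to 0.59) and the mitosis sum 1.05 (0.91 to 1.18), or 1.47 (1.23 to 1.73) for the 12 mitosis members that define no cell.

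Without cycling cells the S-phase sum of other CD3 cells remained higher at 0.31 (0.24 to 0.39). The 12 mitosis members that define no cell then gave 0.24 (-0.21 to 0.68), an interval that includes 0. With Mki67, Top2a and Cdk1 the mitosis sum was -0.36 (-0.59 to -0.13), but every cell left has under 3 UMIs of the defining genes, so that value is set in part by the rule. Of 19 members other than the defining genes, 6 were higher and 1, Tk1, lower, against 6.33% and 8.54% of all genes.

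The makeup of the class differed between the libraries. Gamma-delta T cell markers summed to 1656 CPM in wild-type and 592 CPM in kidney labelled knockout, ILC3 markers to 2350 and 1296 CPM, and ILC2 markers to 448 and 968 CPM. In the library labelled knockout this class was led by the kidney duct genes Aqp2 and Hsd11b2 beside the gamma-delta genes. Markers of kidney epithelium summed to 91.5 CPM there, with none of 6 at 0, against 29.7 CPM in wild-type kidney, where Lrp2 and Miox were at 0. Monocyte and macrophage markers summed to 139 against 7.62 CPM. Their part in the result was not tested.

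In CD8 T-like cells 5 of 23 members were at least 1.5 times higher in the library labelled knockout and 0 lower (background 6.62% and 5.23%), and the medians were 0.37 for members and -0.02 for all genes. Mcm3 stood at 63.4 and 34.1 CPM (log2 0.90, 0.39 to 1.44), Nrm at 39.9 and 22.4 CPM (log2 0.83, 0.20 to 1.52), Tk1 at 23.6 and 14.6 CPM (log2 0.69, -0.09 to 1.57) and Mcm2 at 49.0 and 31.2 CPM (log2 0.65, 0.12 to 1.23). The S-phase sum was 0.31 (0.22 to 0.41), or 0.25 (0.14 to 0.35) without cycling cells, where 4 of 17 members other than the defining genes were higher and 0 lower (6.41% and 5.23%), and the mitosis sum -0.15 (-0.34 to 0.04). Thinned cells below the threshold with at least 3 S-phase UMIs were 9.67% (8.45 to 11.0%) in the knockout and 4.97% (3.27 to 7.20%) in the wild-type library.

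CD4 T-like cells were led by Cd4, Tnfsf8, Tnfrsf4 and Foxp3 in wild-type kidney. In kidney labelled knockout the kidney tubule genes Atp6v1g3, Klk1, Atp6v0d2, Car12 and Fxyd2 stood among the 10 leading genes and Foxp3 did not. The class had 4 of 12 members higher and 0 lower (background 4.26% and 7.1%). The median was -0.05 for members and for all genes. Cdt1, which loads the helicase, stood at 88.3 and 51.6 CPM (log2 0.78, 0.25 to 1.30) and Rrm1 at 80.5 and 52.5 CPM (log2 0.62, 0.08 to 1.16), while Mki67 was 72.8 and 105 CPM (log2 -0.53, -1.01 to -0.06). The S-phase sum gave 0.21 (0.07 to 0.34) and the mitosis sum -0.28 (-0.51 to -0.06). Without cycling cells the S-phase sum was 0.07 (-0.08 to 0.21). The 12 mitosis members that define no cell gave -0.45 (-0.87 to -0.04) over all cells and -0.13 (-1.01 to 0.71) without cycling cells. Of 9 members other than the defining genes, 3 were then higher and 2, Mcm4 and Lig1, lower (4.33% and 7.29%). Without the deepest cells the mitosis sum turned to 0.29. In ILC1/NK-like cells 1 of 15 members, Tubb5, was higher and 1, Top2a, lower (background 3.12% and 3.3%), and the medians were -0.09 and -0.04. Without cycling cells 1 of 11 was higher and 0 lower (3.05% and 3.25%), and with the changed ILC3 gate 2 of 18 were higher and 0 lower (3.51% each way). The S-phase sum was 0.09 (-0.01 to 0.20). The mitosis sum, -0.26 (-0.52 to -0.00), turned to 0.17 with the ILC3 gate without the Tmem176 pair and to 0.60 with every gate 1 UMI higher. Without Mki67, Top2a and Cdk1 it was 0.07 (-0.36 to 0.50), so it had no stable direction. In the CD8 and CD4 T-like classes of the library labelled knockout, kidney epithelium markers summed to 78.5 and 84.4 CPM against 10.7 and 24.5 CPM in wild-type kidney (CD8 first), and to 14.98 and 4.95 CPM in ILC1/NK-like cells.

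Tubb5 (chromosome 17, 35833921 to 35838306, minus strand), a beta-tubulin, was at least 1.5 times higher in the library labelled knockout in all 5 kidney classes. Only 10 of the 40 members had at least 100 UMIs in each of the 5 comparisons, and Tubb5 was the 1 of these 10 that was higher in all. Of all 2800 genes with so many UMIs, 12 (0.429%) were higher in all 5. These 5 comparisons share the same 2 libraries. It stood at 445 and 214 CPM (log2 1.06, 0.79 to 1.33) in ILC2-like cells, 288 and 166 CPM (log2 0.79, 0.57 to 1.02) in ILC1/NK-like cells and 483 and 319 CPM (log2 0.60, 0.43 to 0.77) in CD8 T-like cells. In CD4 T-like cells it stood at 379 and 209 CPM (log2 0.86, 0.61 to 1.11) and in other CD3 cells at 424 and 202 CPM (log2 1.07, 0.94 to 1.19). Without cycling cells the ratios were 0.76, 1.02, 0.75, 1.12 and 0.92 in the same order. In intestinal ILC3-like cells it was, after UUO and sham surgery, 91.0 and 101 CPM (log2 -0.16, -0.29 to -0.02). Tuba1b, an alpha-tubulin outside the 40 genes, was at least 1.5 times higher in the same 5 kidney classes, with ratios of 1.40, 0.66, 0.77, 0.83 and 1.24. Hmgb2, by contrast, lay between -0.09 and 0.10 in 4 kidney classes and at 0.29 (0.18 to 0.40) in other CD3 cells. How reads shared with related tubulin or Hmgb genes and their pseudogenes were counted is not stated.

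**Figure D5:**
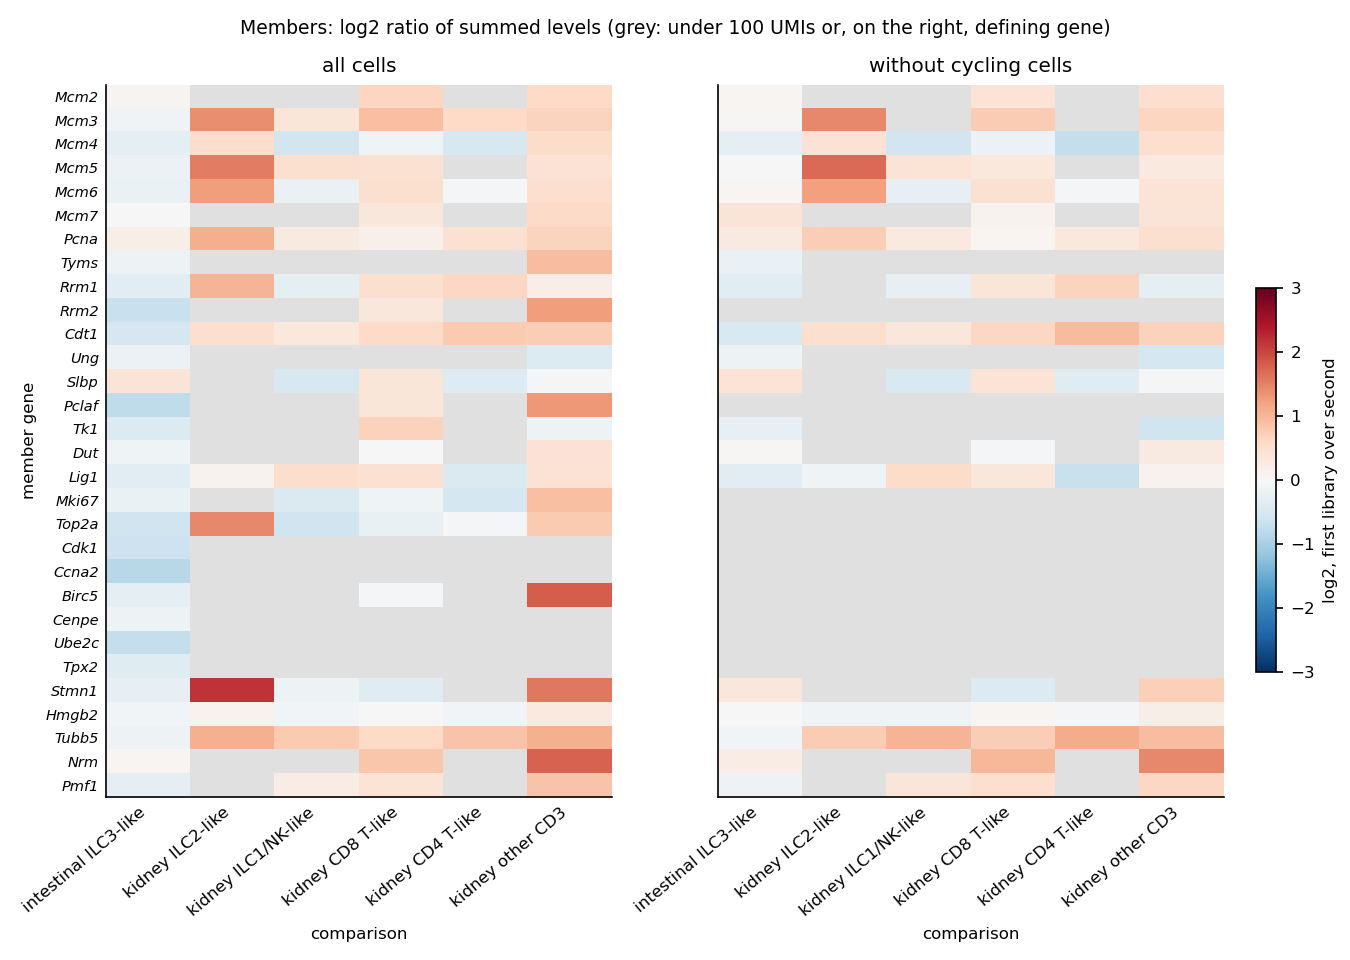
Log2 ratio of summed CPM for each member with at least 100 UMIs (rows), in 6 comparisons (columns), for all cells (left) and without cycling cells (right); kidney is knockout day 3 over wild-type day 14, intestine is UUO over sham, and grey marks too few UMIs or, on the right, the 4 defining genes. Tubb5 is red in all 5 kidney columns in both panels, and Mcm3, Mcm5 and Mcm6 are red in ILC2-like cells with and without cycling cells.

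In intestinal ILC3-like cells, mitosis members stood lower at day 3 of UUO than in the sham library. Of 30 members 0 were at least 1.5 times higher and 6 lower (background 10.6% and 2.97% of 10049 genes), with medians of -0.22 for members and -0.04 for all genes. Levels after UUO and sham surgery were, for the cyclin Ccna2, 7.99 and 14.2 CPM (log2 -0.83, -1.25 to -0.40) and for Pclaf 9.97 and 17.0 CPM (log2 -0.77, -1.15 to -0.39). They were 4.38 and 7.16 CPM (log2 -0.71, -1.30 to -0.12) for the ubiquitin-conjugating Ube2c, 7.48 and 11.9 CPM (log2 -0.67, -1.12 to -0.22) for Rrm2, 7.05 and 10.9 CPM (log2 -0.63, -1.09 to -0.16) for Cdk1 and 25.6 and 38.9 CPM (log2 -0.60, -0.85 to -0.36) for Top2a. All 6 were at least 1.5 times lower after UUO, and Pclaf, Cdk1 and Top2a among them define cycling cells. Of the 6, 4 were among the 8 mitosis members tested and 2, Pclaf and Rrm2, among the 17 S-phase members tested. Without the 4 defining genes 3 of 26 members were lower. The mitosis sum was -0.39 (-0.50 to -0.27), or -0.35 (-0.52 to -0.18) for the 12 members that define no cell. Without the 34 sham and 40 UUO cycling cells these 12 gave -0.02 (-0.30 to 0.26). The 34 mitosis genes outside the 40 gave -0.24 (-0.29 to -0.19) over all cells and -0.15 (-0.21 to -0.10) without cycling cells. That list kept most of its level without cycling cells, from 659 to 597 CPM after UUO and from 777 to 665 CPM after sham surgery. The 15 mitosis members went from 119 to 46.9 and from 156 to 48.7 CPM. Whether the remaining ratio of the outside list reflects mitosis was not tested. Without cycling cells 0 of 20 members other than the defining genes were past 1.5 times in either direction, against 11.6% and 2.91% of all genes. With the ILC3 gate without the Tmem176 pair, 0 of 29 members were higher and 5 lower (11% and 3.29%).

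The S-phase sum of these cells was -0.10 (-0.16 to -0.05), and 0.00 (-0.06 to 0.06) without cycling cells. It was 0.04 after thinning or without the deepest cells, and -0.04 without barcodes shared by the intestinal libraries, so its direction was not stable. Single S-phase genes lay on both sides. Slbp, which binds the stem-loop of histone messages, stood at 65.4 and 49.7 CPM (log2 0.40, 0.21 to 0.58) and Pcna at 191 and 169.9 CPM (log2 0.17, 0.06 to 0.27), both higher after UUO. Cdt1 stood at 41.9 and 59.7 CPM (log2 -0.51, -0.70 to -0.32), Rrm1 at 39.5 and 50.1 CPM (log2 -0.34, -0.55 to -0.14) and Lig1 at 54.2 and 68.9 CPM (log2 -0.34, -0.52 to -0.17), all lower after UUO. Without cycling cells these 5 ratios were 0.41, 0.27, -0.45, -0.33 and -0.34, each on the same side. Thinned cells below the threshold with at least 3 S-phase UMIs were 3.91% (3.31 to 4.58%) after UUO and 2.98% (2.38 to 3.68%) after sham surgery. Markers of intestinal epithelium summed to 6117 CPM in the UUO and 2232 CPM in the sham ILC3-like cells, with none of 7 at 0, and monocyte and macrophage markers to 208 and 222 CPM. Their part in the result was not tested.

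B-like cells, under 100 in each library and therefore not compared, carried high levels of both groups. In wild-type kidney and kidney labelled knockout Mki67 stood at 545 and 305 CPM, Top2a at 677 and 579 CPM and Rrm2 at 297 and 159 CPM. Pcna stood at 639 and 341 CPM, Mcm5 at 242 and 73.2 CPM and Stmn1 at 468 and 226 CPM. The 19 S-phase members that define no cell summed to 2907 and 1781 CPM, and to 454 and 652 CPM without the 10 and 6 cycling cells. The 12 such mitosis members went from 1046 CPM to 0 UMIs, with an exact upper limit of 29.9 CPM, in wild-type kidney, and from 921 to 30.7 CPM in kidney labelled knockout.

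A list of 30 replication genes outside the 40 gave summed log2 ratios, knockout over wild-type kidney, of 0.81 in ILC2-like, 0.15 (0.03 to 0.27) in ILC1/NK-like, 0.21 (0.10 to 0.32) in CD8 T-like, 0.31 (0.16 to 0.46) in CD4 T-like and 0.41 (0.34 to 0.49) in other CD3 cells. Without cycling cells it was 0.48 in ILC2-like and 0.27 in other CD3 cells. Of these genes with at least 100 UMIs, 2 of 4 in ILC2-like cells and 5 of 13 in other CD3 cells were at least 1.5 times higher and 0 lower, against 5.15% and 6.79% of all genes higher. Without cycling cells these counts were 1 of 3, with 0 lower, and 3 of 12, with 1 lower (4.75% and 6.33% of all genes higher). Dnmt1, which copies DNA methylation, stood at 76.2 and 36.4 CPM in ILC2-like cells (1.06), and Rpa2, of the single-strand binding protein RPA, at 83.4 and 24.5 CPM in other CD3 cells (1.77). Mitosis genes outside the 40 summed to 0.35 (0.20 to 0.50) in ILC2-like cells and -0.13 (-0.30 to 0.04) without cycling cells.

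Among inhibitors of the cycle and quiescence genes, members of a list of 13, the sums lay between -0.07 and 0.07 in the 5 kidney classes. Cdkn1a, the p21 inhibitor of cyclin-dependent kinases, was higher in the library labelled knockout in all 5, from 0.27 (0.15 to 0.40) in ILC2-like to 1.39 (1.24 to 1.54) in other CD3 cells, where it stood at 342 and 131 CPM. The antiproliferative Btg2 was lower in other CD3 cells at 429 and 654 CPM (-0.61) and in CD8 T-like cells at 366 and 564 CPM (-0.62). G1 entry genes summed to 0.46 (0.33 to 0.59) in CD4 T-like and 0.21 (0.07 to 0.34) in ILC2-like cells. They summed to 0.26 (0.15 to 0.37) in ILC1/NK-like, 0.18 (0.11 to 0.25) in other CD3 and 0.08 (-0.01 to 0.18) in CD8 T-like cells. Of those with at least 100 UMIs, 1 of 5 in CD8 T-like cells was at least 1.5 times higher (6.62% of all genes). Elsewhere it was 0, of 3 in CD4 T-like (4.26%), 3 in ILC2-like (5.15%), 4 in ILC1/NK-like (3.12%) and 7 in other CD3 cells (6.79%). In intestinal ILC3-like cells the phosphatase Cdc25a of the G1 list stood at 23.5 and 10.5 CPM after UUO and sham surgery (1.17, 0.79 to 1.56). The antiproliferative Tob1 of the inhibitor list stood at 377 and 209 CPM (0.85, 0.77 to 0.94). Each was the 1 gene of its list at least 1.5 times higher, of 11 and 12 with enough UMIs (10.6% of all genes), and none was lower. The G1 list there summed to 0.14 (0.07 to 0.21), the inhibitor list to 0.04 (0.02 to 0.07) and the replication list to -0.06 (-0.12 to 0.00).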

How the data were processed

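Single-cell libraries were made on the BD Rhapsody system. The deposited values are UMI counts per gene and cell, made by the authors with CASAVA 1.8, UMI-tools and Seurat on mm10, per the submitters' processing notes. Aligner, annotation, cell calling and the handling of reads that match several genes: none of these is stated in the labels. The labels describe a digestion of pulmonary artery, which is not the labelled tissue. The wild-type kidney matrix of day 14 named no genes and took the gene order of the other libraries (correlation 0.992, against 0.210 with names shifted).

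Barcodes were kept from 500 UMIs and 250 genes upwards if mitochondrial genes held no more than 20% of the UMIs, and no doublet caller was run. Gates on raw UMIs were at least 2 for Cd3d, Cd3e and Cd3g together, and for cells under 2 at least 3 for the ILC2 genes (Il1rl1, Gata3, Il5, Il13, Calca, Hs3st1) or the ILC1/NK genes (Ncr1, Klrb1c, Xcl1, Eomes, Klra8, Klre1) and at least 4 for 6 ILC3 genes (among them Il22, Il23r, Ccr6, Tmem176a and Tmem176b). The B gate was at least 3 for 5 B cell genes (among them Cd79a, Cd79b, Ms4a1 and Ebf1). Not every gate gene is reported here. CD3 cells were CD8 T-like with at least 2 UMIs of Cd8a and Cd8b1 and none of Cd4, CD4 T-like with at least 1 of Cd4 and none of those, and otherwise other CD3 cells. Cells that passed several gates, 335, 666, 225 and 291, were left out as mixed.

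UMIs were summed per library and class and given as CPM of all UMIs of that class. Intervals are 95% exact Poisson for levels, exact binomial (Clopper-Pearson) for shares and exact conditional binomial for log2 ratios, and cover counting error only. Where a share was 0, the share that 3 cells would give is printed too. Sums and counts without the 4 genes that define cycling cells were added after seeing the data. Ratios were made for classes of at least 100 cells in both libraries, and counts past 1.5 times for genes with at least 100 UMIs over both. A gene can reach these UMIs mainly through the library where it is higher, so the counts are not independent of this filter. The background was filtered in the same way. With 1 library per group no test and no p-value was possible. On counts simulated for the CD8 T-like comparison (6602 genes), 95.7% of intervals covered the true ratio. These counts were drawn independently, as the intervals assume, so they do not check coverage where UMIs come from few cells. Clusters without cell cycle genes came from scanpy 1.11.5 with 30 components and 15 neighbours. In the alternative with clusters, a gated cell was kept only if its class was the most frequent gated class of its cluster. These were 3557 of 4235 gated cells in wild-type kidney and 4053 of 5448 in kidney labelled knockout. This alternative narrows the gates and is not a separate classification. Python 3.11.15, numpy 2.4.6 and scipy 1.17.1 were used. All 40 members may be named, and of each other list up to 4 genes per comparison with the largest ratio. The members and lists were chosen with earlier results of these data known.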

Additional observations from a re-analysis of the deposited data

Results flagged for a closer look

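The summed mitosis members gave ratios on opposite sides in the kidney classes, library labelled knockout at day 3 over wild-type at day 14. They were higher in ILC2-like (log2 1.63) and other CD3 cells (1.05) and lower in ILC1/NK-like (-0.26) and CD4 T-like cells (-0.28). Without Mki67, Top2a and Cdk1 the ILC1/NK-like value was 0.07 and the CD4 T-like value -0.45. Without cycling cells the ILC2-like value was -0.44 and the other CD3 value -0.36, both set in part by the rule. The ILC2-like and CD4 T-like values also changed direction without cells over 3 times their library's median depth. The difference between classes was not tested.

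Cells of the intestine that passed no gate had a higher share of cycling cells than the ILC3-like cells, at 1.17% in sham and 1.01% in UUO intestine. Without a gate it was 18 of 318 (5.66%) after sham surgery and 42 of 580 (7.24%) after UUO. The cells without a gate were shallow, with medians of 605.5 and 656.5 UMIs among the cycling ones, which were led by the macrophage genes Mrc1, Chil3 and Ctsk beside cell cycle genes. Of these cycling cells, 13 of 18 and 20 of 42 had a barcode found in both intestinal libraries. After thinning, 0 of 125 sham cells, which allows a share of up to 2.4% at 3 cells or 2.91% as the exact upper limit, and 2 of 214 UUO cells (0.935%) were cycling. Thinned ILC3-like cells had 0.496 and 0.238%. Thinning left out cells under 1000 UMIs, which were 193 of the 318 sham and 366 of the 580 UUO cells without a gate. The medians of the cycling ones lie below that depth, so the thinned shares cannot tell whether the higher share depends on depth.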

How the results depend on the processing

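Over the alternatives, 151 of the values that answer a comparison stayed within their interval or within 1.5 times of their count, 113 moved and 16 changed direction. The causes were not tested. A change of direction was counted only for ratios whose main interval lay wholly above or wholly below no change. Other ratios that changed sign are among those that stayed or moved. No paired analysis was possible because each group has 1 library. No replicate could be left out for the same reason. Counts past 1.5 times are given out of the members tested, with the share of all genes past it the same way in brackets. Leaving out the 4 genes that define cycling cells was also chosen after seeing the data. Values are given as library labelled knockout over wild-type kidney or UUO over sham intestine, and libraries in the order wild-type kidney, kidney labelled knockout, sham and UUO intestine.

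After thinning to 1000 UMIs, the cycling share of all gated cells was 0.670, 1.05, 0.496 and 0.238%. With at least 2 UMIs as the threshold it was 4.37, 4.20, 1.73 and 1.96%, and with at least 5 it was 0.661, 1.40, 0.795 and 0.578%. Without cells over 3 times the median depth it was 1.73, 0.635 and 0.499% in the last 3 libraries. Among gated cells in a cluster of the same class, called with clusters here, it was 1.68% in kidney labelled knockout. The log2 ratio of S-phase to mitosis UMIs was 2.98, 3.54, 3.54 and 3.60 without cycling cells and 2.06, 2.45, 2.64 and 3.33 without the deepest cells. It was 2.12 and 2.15 in the kidney with clusters, and 1.70, 1.79, 2.01 and 2.31 with the ILC3 gate without the Tmem176 pair, which was chosen after seeing the data. Without the defining genes it was 3.26, 3.21, 3.23 and 3.49, and 5.003, 5.10, 4.48 and 4.51 without cycling cells too.

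In the intestine the S-phase sum turned from -0.10 to 0.040 without the deepest cells, 0.041 after thinning, 0.000813 without cycling cells and 0.046 as a mean of per-cell CPM, and was -0.039 without shared barcodes. The mitosis sum was -0.65 without the deepest cells, -0.054 without cycling cells and -0.24 as a per-cell mean. Without the defining genes and cycling cells these sums were 0.0033 and -0.025. The count of lower members, 6 of 30 (2.97%), was 3 of 26 without the defining genes, 0 of 22 without cycling cells (2.91%), 0 of 20 without both and 0 of 30 at 2 times (0.328%). With at least 30 UMIs 1 of 38 was higher (12.1%).

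In ILC2-like cells the S-phase sum was 0.65 with clusters, 0.48 without the deepest cells, 0.52 after thinning, 0.56 without cycling cells and 0.61 as a per-cell mean. The mitosis sum turned to -0.52 without the deepest cells and -0.44 without cycling cells, and was 0.71 with clusters, 0.69 with the changed ILC3 gate and 1.01 as a per-cell mean. Without the defining genes and cycling cells these sums were 0.56 and -0.20. The count of higher members, 8 of 12 (5.15%), was 14 of 17 with gates 1 UMI higher (5.02%), 5 of 9 without cycling cells (4.75%) and also without the defining genes, 21 of 24 with the changed ILC3 gate (5.4%) and 16 of 23 with at least 30 UMIs (10.4%).

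In ILC1/NK-like cells the mitosis sum turned to 0.60 with higher gates, 0.30 with clusters and 0.17 with the changed ILC3 gate, to 0.068 without the defining genes and 0.47 without cycling cells too, and was -0.88 without the deepest cells. The count of higher members, 1 of 15 (3.12%), was 3 of 18 with higher gates (3.57%), 2 of 13 with clusters (3.11%), 2 of 18 with the changed gate (3.51%), 4 of 25 with at least 30 UMIs (6.15%) and 0 of 15 at 2 times (0.523%). That of lower members, 1 of 15 (3.3%), was 0 with higher gates (3.2%), without cycling cells (3.25%), with the changed gate (3.51%), without the defining genes and at 2 times (0.262%).

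In CD8 T-like cells the mitosis sum was -0.51 with higher gates, 0.19 with clusters and -0.57 without the deepest cells. The higher count, 5 of 23 (6.62%), was 0 of 23 at 2 times (1.82%). The lower count, 0 (5.23%), was 1 of 20 with higher gates (5.38%) and 2 of 33 with at least 30 UMIs (8.49%). In CD4 T-like cells the S-phase sum was 0.067 without cycling cells and 0.057 without the defining genes too. The mitosis sum turned to 0.29 without the deepest cells and 0.029 after thinning, and was -0.56 with clusters and -0.56 without cycling cells. The higher count, 4 of 12 (4.26%), was 1 of 6 with higher gates (4.01%), 1 of 7 with clusters (3.96%), 8 of 25 with at least 30 UMIs (7.24%) and 0 of 12 at 2 times (0.93%). The lower count, 0 (7.1%), was 3 of 7 with clusters (7.54%), 2 of 10 without cycling cells (7.29%), also without the defining genes, and 1 of 25 with at least 30 UMIs (11.5%).

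In other CD3 cells the S-phase sum was 0.43 with higher gates, 0.64 with clusters, 0.42 without the deepest cells, 0.39 after thinning, 0.31 without cycling cells and 0.44 as a per-cell mean. The mitosis sum turned to -0.36 without cycling cells, and was 0.58 with higher gates, 2.00 with clusters, 0.54 without the deepest cells, 0.56 after thinning and 0.58 as a per-cell mean. Without the defining genes the mitosis sum was 1.47, and without cycling cells too the S-phase and mitosis sums were 0.31 and 0.24. The higher count, 14 of 25 (6.79%), was 8 of 23 with higher gates (7.07%), 6 of 21 without cycling cells (6.33%) and 6 of 19 without the defining genes too, 24 of 35 with at least 30 UMIs (11.1%) and 6 of 25 at 2 times (3%). The lower count, 0 (8.55%), was 3 of 21 without cycling cells (8.54%), and 1 of 19 without the defining genes too.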
